A study of Mus musculus with 9 samples.

Results

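The genes described are the transcription factor NRF2 (Nfe2l2), its repressor KEAP1 (Keap1) and 8 genes that NRF2 is known to switch on directly: Nqo1, Hmox1, Gclc, Gclm, Txnrd1, Srxn1, Gsr and Slc7a11. They were chosen by name, and all 10 were found among the 55359 genes of the count table. In total, 17179 genes passed the filter on low counts and were tested, and 9 of the 10 were among them. The exception was Slc7a11.

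RNA was sequenced from whole kidney of mice in 9 libraries, 3 in each of 3 groups. HFD-STZ DHZ kidneys came from mice put on a high-fat diet (49% of calories from fat) at 6 weeks of age, injected with the beta-cell toxin streptozotocin (STZ, 30 mg/kg into the abdomen) on days 60 and 63 of the diet, and, once blood glucose was found raised on day 65, given dehydrozingerone (DHZ), a phenolic compound of ginger related to curcumin, by mouth at 50 mg/kg for 2 weeks. HFD-STZ vehicle kidneys came from mice with the same diet and injections and the vehicle alone, which the labels do not describe. NCD vehicle kidneys came from mice put on a normal calorie diet (11.32% of calories from fat) at 6 weeks of age and given vehicle. Groups were read from the sample titles, because the treatment field names the compound for every library. Neither strain nor sex was stated in the labels. The labels do not say that each library came from its own mouse, so the p-values measure the spread between these libraries, part of which may be technical. Each library has a batch date of its own in the labels and the dates run group by group, which means that a batch effect and a group effect cannot be told apart.

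NRF2 is a transcription factor that pairs with a small MAF protein and binds the antioxidant response element in the promoters and enhancers of its target genes. In unstressed cells KEAP1 holds NRF2 in the cytoplasm and hands it to a CUL3 ubiquitin ligase for destruction. Reactive electrophiles modify cysteines of KEAP1, NRF2 then escapes and enters the nucleus, and genes for glutathione synthesis, thioredoxin recycling, quinone reduction and haem breakdown are switched on. Most of this control acts on the NRF2 protein, which was not measured here. NRF2 is studied in the kidney as a defence against oxidative damage in diabetes.

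The windows from 250 bases before to 50 bases after the transcription start, taken from RefSeq on the build GRCm38.p6, show what letters of the antioxidant response element these genes carry. The core searched was TGACNNNGC on both strands, and 7 of the 10 genes had at least 1 window. It was found for 4 of those 7 (Nfe2l2, Gclm, Txnrd1 and Srxn1), against 14.0% of the 27025 genes with a window. A separate string of the same length, TGAGTCAGC, searched after the windows had been read, was found for Srxn1 alone among the 7, against 0.481% of all genes, and its letters also hold an AP-1 motif. The 4 stretches below are printed along the strand of the gene, with the matched bases in capitals. Those of Nfe2l2, Gclm and Txnrd1 carry the core TGACNNNGC, and that of Srxn1 carries TGAGTCAGC. They lie at chr2:75704865-75704913 (minus strand), chr3:122245393-122245461 (plus), chr10:82859084-82859152 (plus, in the second of the 3 windows of Txnrd1) and chr2:152105449-152105517 (plus).
Nfe2l2: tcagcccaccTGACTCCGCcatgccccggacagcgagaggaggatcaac
Gclm: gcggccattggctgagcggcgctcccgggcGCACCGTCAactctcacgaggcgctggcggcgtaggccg
Txnrd1: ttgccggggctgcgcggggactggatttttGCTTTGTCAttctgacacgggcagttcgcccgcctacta
Srxn1: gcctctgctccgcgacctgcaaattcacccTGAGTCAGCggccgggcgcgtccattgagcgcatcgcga

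In Nfe2l2 the match starts 240 bases before the transcription start, in Gclm 134 bases and in Txnrd1 92 bases before it, and in Gclm and Txnrd1 it reads on the opposite strand. In Srxn1 the string TGAGTCAGC starts 45 bases before the start. The TGACNNNGC core of Srxn1 lies within the transcript, from base 29 to base 37, outside the stretch printed. The windows of Keap1, Nqo1 and Slc7a11 held neither string. Hmox1, Gclc and Gsr had no window in the table. A match is a string of letters, and binding was not measured.

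Total counts were 15.1 to 47.5 M per library (M, the prefix mega), of which nuclear protein-coding genes held 2.13 to 15.2 M. HFD-STZ vehicle replicate 2 stood apart, with 2.13 M such counts, 60.4% of its counts from mitochondrial genes and 19397 genes detected. Results are therefore also given without it. Nuclear protein-coding counts were 7.63, 15.2 and 7.66 M in HFD-STZ DHZ and 3.94, 2.13 and 6.52 M in HFD-STZ vehicle. In NCD vehicle they were 4.59, 5.48 and 8.49 M. Every DHZ library thus lay above every HFD-STZ vehicle library, also in genes detected (24776 to 26201 against 19397 to 23215). Depth and group cannot be told apart in that comparison, with or without HFD-STZ vehicle replicate 2. Y-linked transcripts were present in HFD-STZ DHZ replicate 3, HFD-STZ vehicle replicates 2 and 3 and NCD vehicle replicate 1. Each group thus held libraries with and without them, so the 3 libraries of a group did not all come from 1 mouse. Kidney tubule markers were abundant in all 9 libraries, the 10 proximal tubule markers summing to 2219 to 2809 counts per M counts (CPM) in HFD-STZ DHZ, 1908 to 3717 in HFD-STZ vehicle and 2359.9 to 2713 in NCD vehicle. Levels below are CPM after trimmed-mean (TMM) scaling of the library sizes.

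The comparison of HFD-STZ DHZ with HFD-STZ vehicle asks what the compound did in diabetic kidney. Nfe2l2 rose about 2.03-fold and Keap1 fell to 0.583 of its vehicle level. Of the target genes, Hmox1, Srxn1 and Txnrd1 rose, by 4.63-fold, 1.83-fold and 1.71-fold. Gclm, Gclc, Gsr and Nqo1 did not pass the test, at ratios of 1.88, 1.60, 1.62 and 1.13. Thus 5 of the 9 tested genes were called at an adjusted p below 0.05, 4 higher and 1 lower, when 22.1% of all tested genes were called, 10% higher and 12% lower. The median log2 fold change was 0.78 over the 9 genes and 0.04 over all genes tested. In whole tissue, fewer cells of a type and less RNA per cell cannot be told apart.

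Nfe2l2 (ENSMUSG00000015839.7, chromosome 2) encodes the transcription factor itself. It stood at 40.3, 39.2 and 28.1 CPM in HFD-STZ DHZ, at 15.6, 21.7 and 16.1 CPM in HFD-STZ vehicle and at 17.9, 14.8 and 18.8 CPM in NCD vehicle. Every DHZ library lay above every other library, and the vehicle groups overlapped. The log2 fold change of HFD-STZ DHZ over HFD-STZ vehicle was 1.02 (SE 0.22, adjusted p = 0.01, edgeR quasi-likelihood test). Keap1 (ENSMUSG00000003308.16, chromosome 9) encodes the sensor that marks NRF2 for destruction. It stood at 9.99, 14.5 and 14.5 CPM in HFD-STZ DHZ, at 21.0, 17.4 and 28.2 CPM in HFD-STZ vehicle and at 26.4, 20.2 and 20.6 CPM in NCD vehicle. Here every DHZ library lay below every other library. Its log2 fold change was −0.78 (SE 0.24, adjusted p = 0.036). With libraries scaled by their total count alone it was −0.04 (adjusted p = 0.97), but that scaling moved the median of all genes to 0.81. Both calls held without HFD-STZ vehicle replicate 2, at 1.18 (adjusted p = 0.0099) for Nfe2l2 and −0.92 (adjusted p = 0.023) for Keap1. An antisense gene, Gm16754, overlaps exons of Keap1 and held at most 3 counts, up to 0.775% of the Keap1 count.

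**Figure D1:**
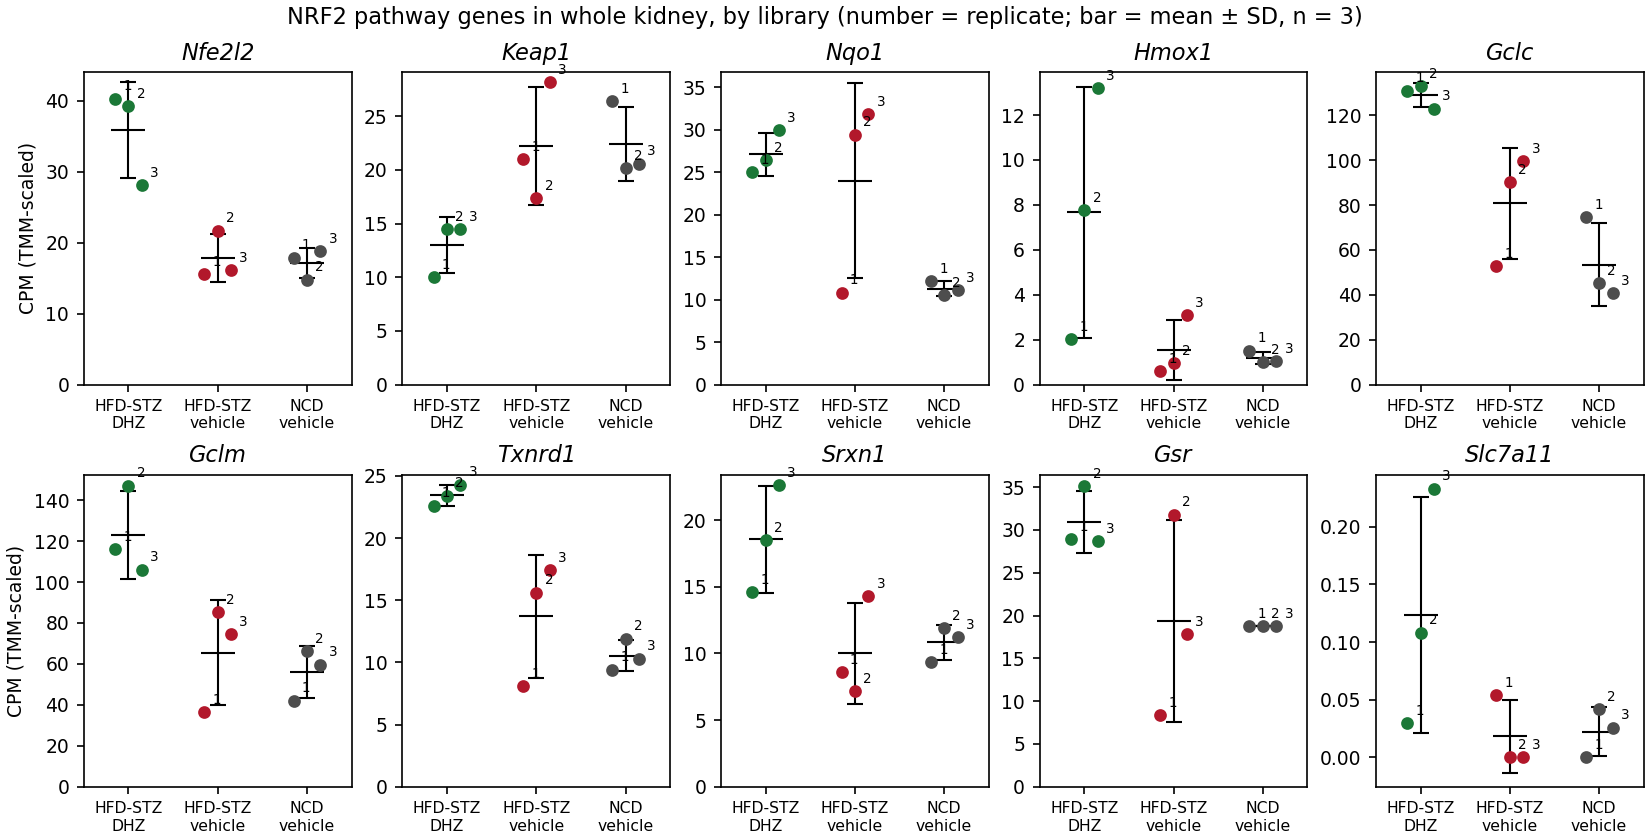
TMM-scaled CPM of the 10 genes (vertical axes, each with its own scale) in HFD-STZ DHZ (green), HFD-STZ vehicle (red) and NCD vehicle (grey) kidneys. Points are libraries numbered by replicate and bars are mean ± SD (n = 3). The DHZ points of Nfe2l2 lie between 28.1 and 40.3 CPM, above all others, and those of Keap1 between 9.99 and 14.5 CPM, below all others, while in HFD-STZ vehicle the Nqo1 and Gsr points spread from 10.8 to 31.8 and from 8.35 to 31.8 CPM.

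Because the rise of one transcript and the fall of the other could each shift with library scaling, the count of Nfe2l2 was divided by that of Keap1 within each library, a ratio that no scaling changes. The ratio was 4.04, 2.71 and 1.95 in HFD-STZ DHZ, 0.742, 1.25 and 0.573 in HFD-STZ vehicle and 0.676, 0.731 and 0.914 in NCD vehicle. All 3 DHZ libraries lay above the highest of the other 6. That separation follows from the levels of both genes given above, and the ratio does not show which transcript moved. The means were 2.90 ± 1.06 in HFD-STZ DHZ, 0.854 ± 0.351 in HFD-STZ vehicle and 0.774 ± 0.125 in NCD vehicle (SD, n = 3 each). The ratio was chosen after the values of both genes had been seen, so it carries no test. It compares counts that are not divided by transcript length, so its size is not a ratio of molecules.

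**Figure D2:**
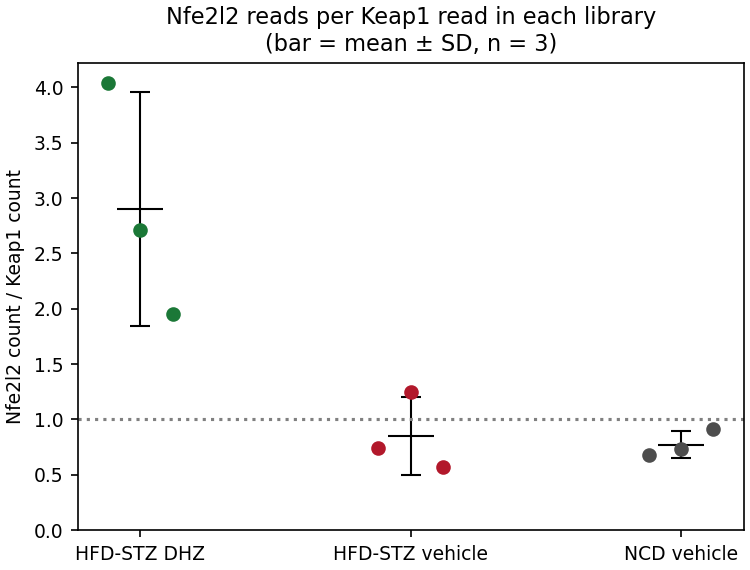
Count of Nfe2l2 divided by count of Keap1 (vertical axis, no unit) in each library of the 3 groups, with mean ± SD (n = 3). The DHZ libraries lie at 1.95 to 4.04 and the other 6 at 0.573 to 1.25, and the dotted line marks equal counts.

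Hmox1 (ENSMUSG00000005413.9, chromosome 8) encodes haem oxygenase 1, the inducible enzyme that breaks down haem. It stood at 2.03, 7.77 and 13.2 CPM in HFD-STZ DHZ, at 0.596, 0.944 and 3.09 CPM in HFD-STZ vehicle and at 1.50, 0.997 and 1.05 CPM in NCD vehicle. It had the widest spread of the tested genes within HFD-STZ DHZ, 6.49-fold between the highest and the lowest library, and the lowest DHZ value lay below the highest HFD-STZ vehicle value. The log2 fold change of HFD-STZ DHZ over HFD-STZ vehicle was 2.21 (SE 0.70, adjusted p = 0.047). The call was lost without HFD-STZ vehicle replicate 2 (log2 fold change 2.01, adjusted p = 0.15). Macrophages also make haem oxygenase 1, and the summed level of 10 macrophage markers was 42.0 to 53.3 CPM in HFD-STZ DHZ, 23.9 to 55.7 CPM in HFD-STZ vehicle and 37.1 to 53.3 CPM in NCD vehicle. Of the 9 of these markers tested, 3 were called higher (C1qa, C1qb and C1qc) and 1 lower (Csf1r) with DHZ than with vehicle in HFD-STZ kidneys, and none of the 10 was at 0 in all libraries. Over the 9 the median log2 fold change was 1.00, with 8 above 0. The shares over all tested genes in that comparison were 10% called higher and 12% called lower. Csf1r, which weighs heavily in the sum, averaged 10.1 CPM in HFD-STZ DHZ, 21.4 CPM in HFD-STZ vehicle and 31.3 CPM in NCD vehicle. The part of these cells in the Hmox1 result was not tested.

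Txnrd1 and Srxn1 act on protein thiols. Txnrd1 (ENSMUSG00000020250.12, chromosome 10) encodes the cytosolic thioredoxin reductase and stood at 22.6, 23.4 and 24.3 CPM in HFD-STZ DHZ, at 8.08, 15.6 and 17.4 CPM in HFD-STZ vehicle and at 9.41, 11.9 and 10.3 CPM in NCD vehicle. The DHZ libraries lay close together, above all others. The log2 fold change of HFD-STZ DHZ over HFD-STZ vehicle was 0.78 (SE 0.26, adjusted p = 0.049). Srxn1 (ENSMUSG00000032802.9, chromosome 2) encodes sulfiredoxin, which repairs overoxidised peroxiredoxins. It stood at 14.6, 18.5 and 22.6 CPM in HFD-STZ DHZ, at 8.57, 7.15 and 14.3 CPM in HFD-STZ vehicle and at 9.36, 11.9 and 11.2 CPM in NCD vehicle. The lowest DHZ library was just above the highest HFD-STZ vehicle library, and the log2 fold change was 0.87 (SE 0.27, adjusted p = 0.036). Leaving out HFD-STZ vehicle replicate 2 ended both calls, at 0.88 (adjusted p = 0.051) for Txnrd1 and 0.70 (adjusted p = 0.081) for Srxn1.

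The tested genes for glutathione synthesis and recycling had estimates above 0 that did not pass the test. Gclc (ENSMUSG00000032350.10, chromosome 9) encodes the catalytic subunit of glutamate-cysteine ligase, the rate-limiting enzyme of glutathione synthesis. It stood at 131, 133 and 123 CPM in HFD-STZ DHZ, at 52.7, 90.2 and 99.6 CPM in HFD-STZ vehicle and at 74.5, 45.1 and 40.8 CPM in NCD vehicle. All 3 DHZ libraries lay above the other 6, yet the estimate against HFD-STZ vehicle, 0.68 on the log2 scale, did not pass (SE 0.29, adjusted p = 0.12). With the presence of Y-linked transcripts as a term it did (0.92, adjusted p = 0.023). Gclm (ENSMUSG00000028124.16, chromosome 3), the modifier subunit of the same enzyme, stood at 116, 147 and 106 CPM in HFD-STZ DHZ, at 36.4, 85.2 and 74.6 CPM in HFD-STZ vehicle and at 42.0, 66.3 and 59.7 CPM in NCD vehicle. Again no DHZ library overlapped the others, and the log2 estimate was 0.91 (SE 0.32, adjusted p = 0.056). Gclm is uncertain, because the pseudogene Gm6061 overlaps its exons on the same strand and held up to 30.4% of the Gclm count. Without HFD-STZ vehicle replicate 2 Gclm was called (1.15, adjusted p = 0.037).

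Gsr (ENSMUSG00000031584.17, chromosome 8) encodes glutathione reductase, which returns oxidised glutathione to its reduced form. It stood at 28.9, 35.1 and 28.7 CPM in HFD-STZ DHZ, at 8.35, 31.8 and 17.8 CPM in HFD-STZ vehicle and at 18.8 CPM in each of the 3 NCD vehicle libraries. HFD-STZ vehicle replicate 2 reached into the DHZ range, and the log2 estimate was 0.70 (SE 0.35, adjusted p = 0.17). When that library was left out, Gsr was called, at 1.24 (adjusted p = 0.017). Slc7a11 (ENSMUSG00000027737.11, chromosome 3) encodes the cystine transporter xCT, which supplies cysteine for glutathione. It had 1, 7 and 8 counts in HFD-STZ DHZ, 1, 0 and 0 counts in HFD-STZ vehicle and 0, 1 and 1 counts in NCD vehicle. A count of 0 allows up to 3 counts, which is 0.405 CPM in HFD-STZ vehicle replicate 2, so no fold is given. It did not pass the filter on low counts, and in the fit with no filter HFD-STZ DHZ did not pass against HFD-STZ vehicle (adjusted p = 0.32) or NCD vehicle (adjusted p = 0.33).

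Nqo1 (ENSMUSG00000003849.9, chromosome 8) encodes a quinone reductase that is often used as a readout of NRF2 activity. It stood at 25.0, 26.4 and 29.9 CPM in HFD-STZ DHZ, at 10.8, 29.4 and 31.8 CPM in HFD-STZ vehicle and at 12.2, 10.5 and 11.1 CPM in NCD vehicle. A pair of HFD-STZ vehicle libraries lay at the DHZ level and replicate 1 lay at the NCD vehicle level. The log2 estimate of HFD-STZ DHZ over HFD-STZ vehicle was 0.18 (SE 0.32, adjusted p = 0.71), and without HFD-STZ vehicle replicate 1 it was −0.19 (adjusted p = 0.51). It was the tested target gene with the smallest estimate in this comparison.

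Of the 9 tested genes, 6 had no overlap between the 3 DHZ and the 3 HFD-STZ vehicle libraries, 5 higher and 1 lower, when 39.8% of all tested genes had none, 20.9% higher and 19% lower. Each of the 5 calls was lost without at least 1 of the 9 libraries, that of Nfe2l2 without 1, those of Keap1, Hmox1 and Srxn1 without 7 and that of Txnrd1 without 8. The number called was 1 without HFD-STZ DHZ replicate 1, 2 or 3, without HFD-STZ vehicle replicate 1 and without NCD vehicle replicate 2 or 3, and 4 without each of the other 3 libraries. Those 4 were Nfe2l2, Keap1, Gclm and Gsr without HFD-STZ vehicle replicate 2, Nfe2l2, Hmox1, Txnrd1 and Srxn1 without HFD-STZ vehicle replicate 3, and Nfe2l2, Keap1, Gclm and Srxn1 without NCD vehicle replicate 1. The 1 gene was Nfe2l2 each time except without HFD-STZ DHZ replicate 1, when it was Hmox1 and Nfe2l2 stood at 0.94 (adjusted p = 0.052). Calls over all genes, 3796 with every library in, moved between these fits too, and their range is given in the last section. Across the 9 libraries left out in turn the log2 fold change ranged from 0.91 to 1.18 for Nfe2l2, −0.92 to −0.56 for Keap1, 1.60 to 3.40 for Hmox1, 0.49 to 1.01 for Txnrd1 and 0.70 to 1.24 for Srxn1. The 3 groups entered 1 fit, and with only HFD-STZ DHZ and HFD-STZ vehicle in it, Nfe2l2 alone was called.

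**Figure D3:**
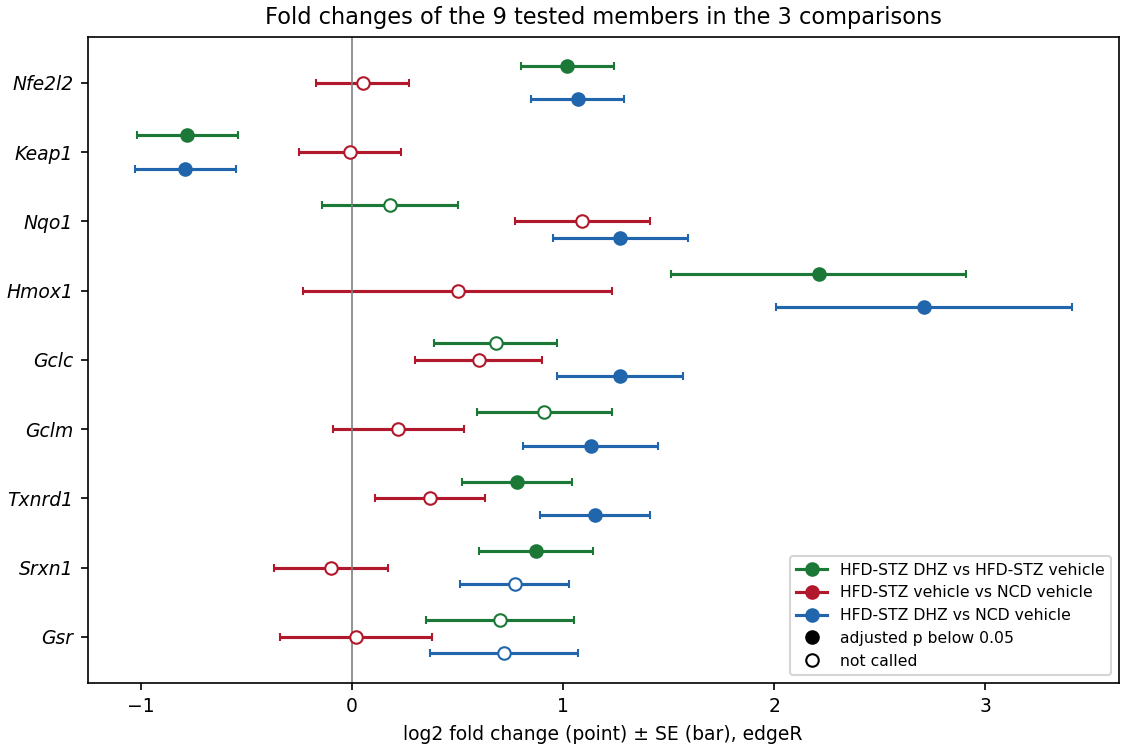
Log2 fold change (horizontal axis, point) ± SE (bar) of the 9 tested genes in the 3 comparisons, from the edgeR fit. Filled points passed an adjusted p of 0.05: in HFD-STZ DHZ over HFD-STZ vehicle (green) these are Nfe2l2, Keap1, Hmox1, Txnrd1 and Srxn1, in HFD-STZ DHZ over NCD vehicle (blue) 7 genes, and in HFD-STZ vehicle over NCD vehicle (red) 0.

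The comparison of HFD-STZ vehicle with NCD vehicle asks what the diabetic model did. Nfe2l2 and Keap1 had close to the same level in both, with log2 estimates of 0.05 (SE 0.22, adjusted p = 0.97) and −0.01 (SE 0.24, adjusted p = 0.99). None of the 9 tested genes was called by edgeR, DESeq2 or limma-voom, and 0.0524% of all genes tested were called by edgeR, 9 in number, 0.0233% higher and 0.0291% lower. Of the 9, Nqo1 alone had an unadjusted p below 0.05, when 7.43% of all genes had one, at a log2 estimate of 1.09 (SE 0.32, unadjusted p = 0.0056 and adjusted p = 0.42 in the edgeR fit). Its means were 24.0 ± 11.5 CPM in HFD-STZ vehicle and 11.3 ± 0.885 CPM in NCD vehicle (SD, n = 3 each). Without HFD-STZ vehicle replicate 1 Nqo1 was called, at 1.46 (adjusted p = 0.025), and it was also called with no filter on low counts. The estimates of the other 6 genes (Hmox1, Gclc, Gclm, Txnrd1, Srxn1 and Gsr) ran from −0.10 (Srxn1) to 0.60 (Gclc), and none of the 9 genes was free of overlap, when 11.4% of all genes were, 4.83% higher and 6.56% lower. With scaling by total count alone, which moved the median of all genes to −0.74, 6 of the 7 positive estimates turned negative, Nqo1 being the exception.

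The libraries of HFD-STZ vehicle differed among themselves more than those of the other groups in most of these genes. The ratio of the highest to the lowest library had a median of 2.15 over the 9 tested genes in HFD-STZ vehicle, 1.39 in HFD-STZ DHZ and 1.27 in NCD vehicle. That ratio was not taken over all tested genes, so the wider spread is not shown to be particular to these 9. Replicate 1 was the lowest HFD-STZ vehicle library for 7 of the 9, all but Keap1 and Srxn1. It was also the only one of the 3 without Y-linked transcripts. With presence of Y-linked transcripts as a term, the estimate for Nqo1 was 0.48 (adjusted p = 0.24) in HFD-STZ DHZ over HFD-STZ vehicle and 0.78 (adjusted p = 0.55) in HFD-STZ vehicle over NCD vehicle.

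The comparison of HFD-STZ DHZ with NCD vehicle sets treated diabetic kidney against healthy kidney. Of the 9 tested genes, 7 were called, 6 higher and 1 lower, when 13.7% of all genes were called, 6.31% higher and 7.38% lower. Their median log2 fold change was 1.13, against 0.01 for all genes. All 9 tested genes were free of overlap, 8 higher and 1 lower, when 44.1% of all genes were, 22.4% higher and 21.7% lower, and 8 had an unadjusted p below 0.05, when 31.7% of all genes had one. This comparison and that with HFD-STZ vehicle share the DHZ libraries and are not independent.

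Nfe2l2 rose (1.07, SE 0.22, adjusted p = 0.015) and Keap1 fell (−0.79, SE 0.24, adjusted p = 0.047). Hmox1 rose by 2.71 on the log2 scale (SE 0.70, adjusted p = 0.033). Gclc and Nqo1 each rose by 1.27 (adjusted p = 0.021 and 0.027), and Gclm rose by 1.13 (adjusted p = 0.036). These 3 targets were not called against HFD-STZ vehicle, and the difference between the fold changes is the HFD-STZ vehicle over NCD vehicle estimate, which was not called for any of them. Txnrd1 rose by 1.15 (adjusted p = 0.019). Srxn1 and Gsr did not pass, at 0.77 (adjusted p = 0.068) and 0.72 (adjusted p = 0.18).

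The count of 7 fell to 1 without HFD-STZ DHZ replicate 1 (Hmox1), to 0 without HFD-STZ DHZ replicate 2 and to 3 without HFD-STZ DHZ replicate 3 (Gclc, Nfe2l2 and Txnrd1). It fell to 1 without NCD vehicle replicate 1 (Gclc) or 2 (Txnrd1) and to 2 without NCD vehicle replicate 3 (Nfe2l2 and Txnrd1). With scaling by total count alone, Hmox1 was the 1 gene called. Without HFD-STZ vehicle replicate 2, where Srxn1 was called and Hmox1 was not, it was 7. Over the 9 fits the log2 estimates ranged from 0.97 to 1.22 for Nfe2l2, 1.20 to 1.33 for Nqo1 and 1.08 to 1.25 for Txnrd1. Calls over all genes, 2352 with every library in, moved between the fits too, and their range is given in the last section.

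**Figure D4:**
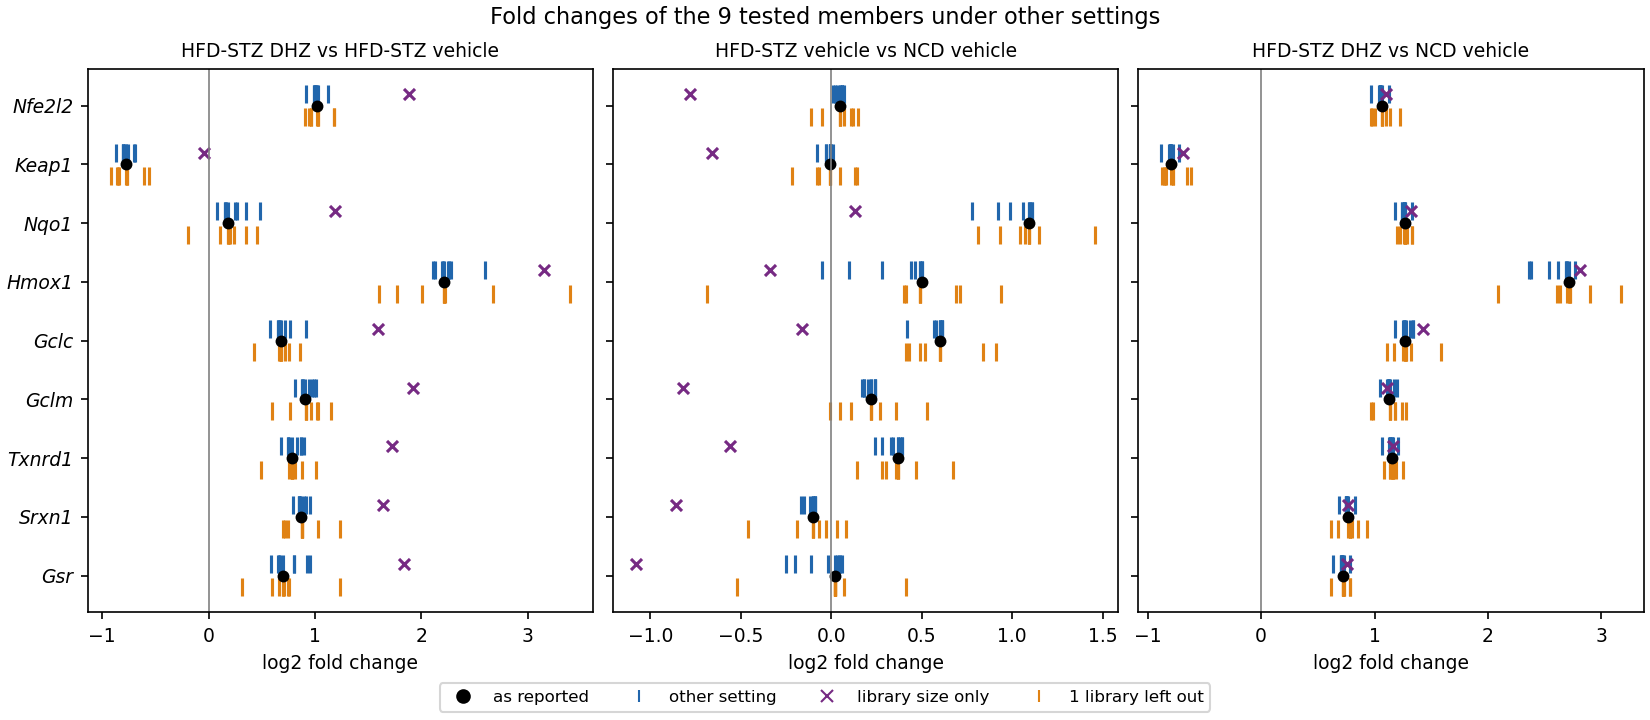
Log2 fold change (horizontal axis) of the 9 tested genes in the 3 comparisons as reported (black), under other settings (blue), with scaling by total count alone (purple cross) and with 1 library left out (orange). All of these genes but Nqo1 keep their sign in all settings of both DHZ comparisons. For Keap1 in HFD-STZ DHZ over HFD-STZ vehicle the purple cross lies close to 0, at −0.04.

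Levels were compared between genes after division by exon length. Gclc was the highest in each group, at 34.3 ± 1.42 CPM per kb in HFD-STZ DHZ, 21.5 ± 6.58 in HFD-STZ vehicle and 14.2 ± 4.87 in NCD vehicle (SD, n = 3 each). In HFD-STZ DHZ its range did not overlap that of the next gene, Gclm, at 19.5 ± 3.44 CPM per kb, whereas Gclm and Nqo1 (17.5 ± 1.61) overlapped. Nfe2l2 stood at 9.46 ± 1.77 CPM per kb in HFD-STZ DHZ, 4.69 ± 0.896 in HFD-STZ vehicle and 4.52 ± 0.554 in NCD vehicle. Keap1 stood at 2.77 ± 0.550, 4.73 ± 1.17 and 4.77 ± 0.740 CPM per kb in the same order of groups. Thus Keap1 was next above Nfe2l2 in both vehicle groups, with overlapping ranges. In HFD-STZ DHZ Keap1 had the lowest mean of the tested genes. Its range there, 2.13 to 3.09 CPM per kb, lay within that of Hmox1, 1.16 to 7.52. Hmox1 had the lowest mean of the tested genes in both vehicle groups, at 0.881 ± 0.771 CPM per kb in HFD-STZ vehicle and 0.674 ± 0.157 in NCD vehicle. It stood at 4.37 ± 3.18 in HFD-STZ DHZ. Slc7a11 was below 0.02 CPM per kb in each library.

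The genes whose pattern over the 9 libraries was most like that of Nfe2l2, by the root mean square difference of centred log2 CPM, were Sf3b6 (0.124), Esrrg (0.140), Mob1b (0.144), Clta (0.150) and Snx13 (0.155), out of 5592 candidates. Esrrg, an orphan nuclear receptor, stood at 31.3, 31.5 and 19.8 CPM in HFD-STZ DHZ, at 13.6, 17.4 and 15.6 CPM in HFD-STZ vehicle and at 12.9, 13.3 and 14.6 CPM in NCD vehicle. For Nqo1 they were Fcgr2b (0.179), Tmem252 (0.188), Cmtm6 (0.205), Aoah (0.244) and Arhgap42 (0.261). Fcgr2b, an inhibitory Fc receptor of immune and endothelial cells, stood at 28.6, 25.6 and 33.3 CPM in HFD-STZ DHZ, at 14.9, 35.9 and 29.7 CPM in HFD-STZ vehicle and at 14.0, 14.2 and 13.3 CPM in NCD vehicle. As for Nqo1, its HFD-STZ vehicle replicate 1 lay near the NCD vehicle level. Fcgr2b was picked for its likeness to Nqo1 over these same libraries, so this is no separate observation.

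A further 83 genes of the wider pathway were listed in 7 groups, and 79 of them were tested. Against HFD-STZ vehicle, HFD-STZ DHZ had 23 called (29.1%), 18 higher and 5 lower, beside the 22.1% of all genes. Against NCD vehicle it had 18 called (22.8%), 15 higher and 3 lower, beside the 13.7% of all genes. HFD-STZ vehicle against NCD vehicle had 0 called by edgeR, DESeq2 or limma-voom, beside the 0.0524% of all genes that edgeR called. An unadjusted p below 0.05 was seen for 3 of the 79, beside 7.43% of all genes. These were Gstm1 (0.96, adjusted p = 0.40), Gsta1 (0.79, adjusted p = 0.47) and Prdx4 (−0.82, adjusted p = 0.62). Of the 23, 6 were called in all 19 other settings: Cul3, Idh1, Gsta2, Mgst1, Ugt1a6a and Slc40a1. With scaling by total count alone, 16 were called higher and 0 lower, and Ep300 and Gstm1 changed sign (0.13 and 0.03).

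Of the 17 other regulators and partners of NRF2, 1 was called higher and 4 lower in HFD-STZ DHZ against HFD-STZ vehicle. In that comparison 22.1% of all tested genes were called, 10% higher and 12% lower. Cul3, the scaffold of the ligase that KEAP1 recruits, stood at 46.5, 44.3 and 37.1 CPM in HFD-STZ DHZ, at 13.1, 21.8 and 18.9 CPM in HFD-STZ vehicle and at 17.9, 21.1 and 22.0 CPM in NCD vehicle. It rose while Keap1 fell, and its log2 fold change was 1.25 against HFD-STZ vehicle (SE 0.23, adjusted p = 0.0058) and 1.07 against NCD vehicle (adjusted p = 0.015). Mafg, a small MAF partner with which NRF2 binds DNA, stood at 23.8, 28.8 and 39.1 CPM in HFD-STZ DHZ, at 72.9, 152 and 89.3 CPM in HFD-STZ vehicle and at 96.2, 58.4 and 49.6 CPM in NCD vehicle. Its DHZ libraries lay below all others, with a log2 fold change of −1.78 against HFD-STZ vehicle (SE 0.34, adjusted p = 0.0068) and −1.16 against NCD vehicle (adjusted p = 0.04). The histone acetyltransferases Crebbp and Ep300, which act as NRF2 coactivators, fell by 1.40 (adjusted p = 0.0074) and by 0.78 (adjusted p = 0.043) against HFD-STZ vehicle, and the corepressor Nrip1 fell by 0.70 (adjusted p = 0.037); scaled by total count alone, these were −0.49, 0.13 and −0.01, and Mafg was −0.79. Dpp3, a peptidase that can bind KEAP1, was called against NCD vehicle (−0.78, adjusted p = 0.044), and against HFD-STZ vehicle it stood at −0.68 (adjusted p = 0.058). Bach1, the repressor that competes for the same element, was not called in HFD-STZ DHZ (0.15 against HFD-STZ vehicle, adjusted p = 0.57), nor was Sqstm1, the autophagy receptor that binds KEAP1 (0.68, adjusted p = 0.15).

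In the thioredoxin and peroxiredoxin list, 4 of 12 genes were called higher in the DHZ libraries than with vehicle in HFD-STZ kidneys and 0 lower. They were the peroxide-reducing enzymes Prdx1 (1.07), Prdx3 (1.07), Prdx4 (1.18) and Prdx6 (0.85), with adjusted p-values of 0.032, 0.013, 0.026 and 0.047. The shares over all tested genes in that comparison were 10% higher and 12% lower. Prdx1 stood at 182, 199.5 and 187 CPM in HFD-STZ DHZ, at 48.0, 129 and 94.7 CPM in HFD-STZ vehicle and at 64.4, 73.1 and 84.6 CPM in NCD vehicle, so its DHZ libraries lay above all others. Against NCD vehicle, Prdx1 (1.36, adjusted p = 0.021), Prdx3 (1.00, adjusted p = 0.025) and Txnrd3 (0.87, adjusted p = 0.037) were called, when 6.31% of all tested genes were called higher and 7.38% lower. Prdx1 has processed pseudogenes, which may share its reads.

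Among 7 enzymes that supply NADPH, the cofactor of both reductases, Idh1 and Taldo1 were called higher in the DHZ libraries than with vehicle in HFD-STZ kidneys and 0 lower. Over all tested genes 10% were called higher and 12% lower. Idh1, cytosolic isocitrate dehydrogenase, stood at 141, 117 and 117 CPM in HFD-STZ DHZ, at 37.3, 56.1 and 69.3 CPM in HFD-STZ vehicle and at 47.9, 63.0 and 50.2 CPM in NCD vehicle. Its log2 fold change was 1.21 (SE 0.26, adjusted p = 0.0096) against HFD-STZ vehicle and 1.22 (adjusted p = 0.015) against NCD vehicle. Taldo1, transaldolase of the pentose phosphate pathway, rose by 0.87 (adjusted p = 0.034). Me1, malic enzyme, was called against NCD vehicle (1.26, adjusted p = 0.044) and stood at 1.09 (adjusted p = 0.056) against HFD-STZ vehicle. Against NCD vehicle, 6.31% of all tested genes were called higher and 7.38% lower.

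The list of conjugation, quinone and aldehyde enzymes had 19 genes tested, of which HFD-STZ DHZ had 5 called higher and 1 lower against HFD-STZ vehicle, and 7 higher and 0 lower against NCD vehicle. The highest fold was that of Ugt1a6a, a UDP-glucuronosyltransferase, which stood at 7.94, 5.49 and 3.98 CPM in HFD-STZ DHZ, at 0.867, 1.35 and 1.56 CPM in HFD-STZ vehicle and at 1.12, 1.91 and 2.43 CPM in NCD vehicle (log2 fold change 2.20 against HFD-STZ vehicle, SE 0.38, adjusted p = 0.0051). Its exons are shared in part with other genes of its cluster. Mgst1, a membrane glutathione transferase, stood at 49.4, 43.5 and 31.0 CPM in HFD-STZ DHZ, at 10.1, 12.1 and 18.3 CPM in HFD-STZ vehicle and at 7.86, 13.2 and 15.4 CPM in NCD vehicle (1.60, SE 0.30, adjusted p = 0.0066). In both genes all DHZ libraries lay above all others. Gsta2 (1.60), the carbonyl reductase Cbr3 (1.84) and the retinal dehydrogenase Aldh1a1 (1.22) rose as well, with adjusted p-values of 0.0074, 0.017 and 0.017. Gstm1, another glutathione transferase, fell against HFD-STZ vehicle, at 54.4, 72.2 and 63.9 CPM in HFD-STZ DHZ and 75.4, 113 and 155 CPM in HFD-STZ vehicle (−0.85, SE 0.28, adjusted p = 0.049, but 0.03 when scaled by total count alone). Gsta1 (1.47, adjusted p = 0.0096) and Gsta3 (0.87, adjusted p = 0.048) were called against NCD vehicle. The shares over all tested genes were 10% higher and 12% lower against HFD-STZ vehicle, and 6.31% and 7.38% against NCD vehicle. The Gsta and Gstm genes have near-identical relatives that may share reads, so their values are uncertain.

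In the haem and iron list, 5 of 9 genes were called higher in the DHZ libraries than with vehicle in HFD-STZ kidneys and 0 lower. Over all tested genes 10% were called higher and 12% lower. Slc40a1, ferroportin, the iron exporter, stood at 20.1, 19.5 and 17.1 CPM in HFD-STZ DHZ, at 12.1, 5.66 and 5.42 CPM in HFD-STZ vehicle and at 9.73, 12.3 and 11.6 CPM in NCD vehicle (1.27, SE 0.29, adjusted p = 0.011). The ferritin chains Fth1 and Ftl1, which store iron, rose by 1.03 (adjusted p = 0.037) and 1.16 (adjusted p = 0.044), and both have processed pseudogenes that may share reads. Hmox2, the constitutive haem oxygenase, rose by 0.69 (adjusted p = 0.043). Tfrc, the transferrin receptor, rose by 0.94 against HFD-STZ vehicle (adjusted p = 0.027) and by 1.12 against NCD vehicle (adjusted p = 0.022), and was the only one of the 9 called against NCD vehicle. Among 5 exporters, Abcc1 was called against HFD-STZ vehicle (1.04, adjusted p = 0.035) and Abcc4 against NCD vehicle (1.16, adjusted p = 0.045). For both lists, the shares over all tested genes against NCD vehicle were 6.31% called higher and 7.38% called lower.

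The 10 tested genes of the list for further glutathione synthesis and recycling had 0 called in any comparison by edgeR. The lowest p-values in HFD-STZ DHZ against HFD-STZ vehicle were those of Slc3a2, the partner chain of xCT (0.63, adjusted p = 0.062), and Cth, which makes cysteine (1.13, adjusted p = 0.06). Against NCD vehicle they were those of Glrx, glutaredoxin (0.91, adjusted p = 0.051), and Cth (1.27, adjusted p = 0.052). Over all 7 lists the median log2 fold change was 0.44 against HFD-STZ vehicle and 0.37 against NCD vehicle.

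**Figure D5:**
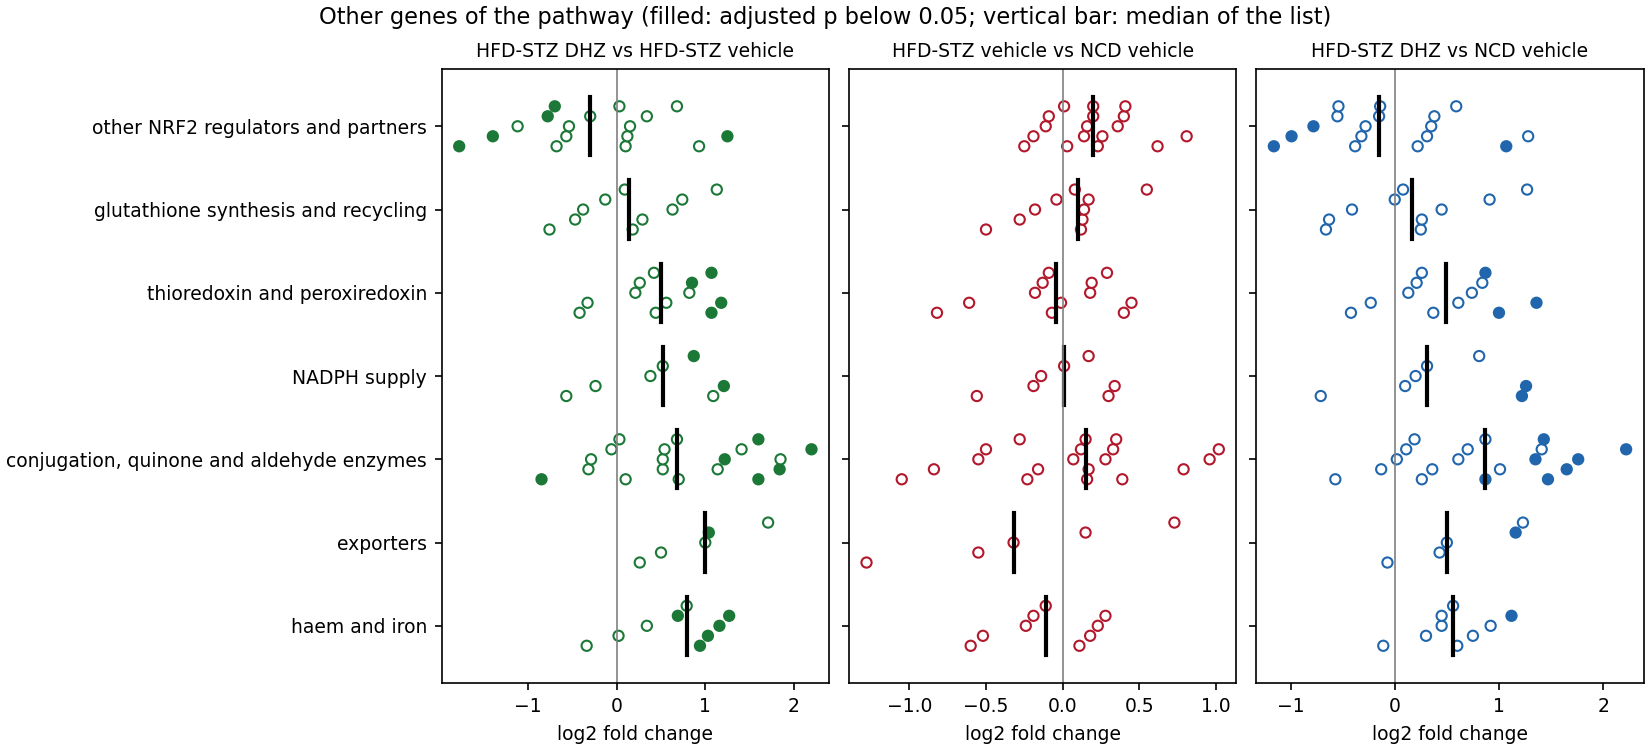
Log2 fold change (horizontal axes) of the 79 tested genes of 7 further pathway lists (rows) in the 3 comparisons (panels), with filled points at an adjusted p below 0.05 and a vertical bar at each list's median. In the left panel 18 genes are called higher and 5 lower, in the middle panel 0, and in the right panel 15 higher and 3 lower; scaled by total count alone, Ep300 and Gstm1 change sign in the left panel.

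Summed markers of other cell types also differed between the groups. The summed level of 5 podocyte markers was 67.6 to 87.6 CPM in HFD-STZ DHZ, 20.9 to 43.4 CPM in HFD-STZ vehicle and 51.4 to 69.9 CPM in NCD vehicle. That of 5 mesenchymal markers was 48.6 to 68.0, 26.3 to 48.0 and 70.1 to 79.0 CPM in the same order, and that of 10 distal tubule and collecting duct markers 452 to 865, 868 to 952 and 681 to 789.8 CPM. For 5 adipocyte markers it was 0.617 to 10.3, 0 to 0.325 and 0.107 to 8.54 CPM. The part of a shift in cell types in the results for Nfe2l2, Keap1 and the target genes was not tested.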

How the data were processed

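Polyadenylated RNA from whole kidney was sequenced with a stranded kit, per the labels' protocols. The authors deposited 1 table of raw read counts per gene for the 9 libraries, and 0 of its columns of library values were left aside. Per the submitters' processing notes, reads were checked with FastQC, trimmed with Trim Galore and aligned with STAR to GRCm39 (mm39). The counting tool and its strand and multimapping settings are not named there.

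Counts were tested with edgeR 4.0.16 in R 4.3.3: TMM scaling, filterByExpr, 1 robust quasi-likelihood fit over the 3 groups (6 residual degrees of freedom, common dispersion 0.0893) and Benjamini-Hochberg adjustment over 17179 genes. Adjusted p-values in the report come from this edgeR fit unless another setting is named, and a gene was called below 0.05. SE is the log2 fold change divided by the root of F. The steps were tested on simulated data. DESeq2 1.42.0 and limma 3.58.1 (voom) were alternatives, beside other scalings, filters and terms and leaving out each library. Symbols matched 94.1% of genes. Exon lengths and overlaps came from an older annotation on GRCm38, and log2 CPM for likeness used a prior count of 2. No pair of libraries held identical values.

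The genes, lists and tests were chosen with earlier results of these data known. All 10 genes are named, and of each further list every gene called in at least 1 comparison, or else the 2 with the lowest p. Bach1, Sqstm1 and Slc3a2 were named after their values were seen. For Nfe2l2 and Nqo1, the 5 genes of mean log2 CPM of at least 3 with the most similar pattern are named.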

Additional observations from a re-analysis of the deposited data

How the results depend on the processing

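Of 513 values of single genes under other settings, 377 kept direction and side of the threshold, 93 lost the call, 19 gained it and 24 changed sign. Genes called in HFD-STZ DHZ over HFD-STZ vehicle, HFD-STZ vehicle over NCD vehicle and HFD-STZ DHZ over NCD vehicle numbered 3796, 9 and 2352. They were 888, 29 and 36 with scaling by total count, which left 1 of the 9 NRF2 genes and 0 of the other pathway genes called in the last, and moved the share of calls that were higher to 93.7%, 24.1% and 50%, against 45.5%, 44.4% and 46.1%. TMM on nuclear coding genes gave 3 NRF2 genes in the first and a share of 36% in the first and 34.9% in the last. HFD-STZ vehicle over NCD vehicle had 425 genes, 1 NRF2 gene and 3 other pathway genes with no filter, 2 without robust fitting, 42 with a Y-linked term, 3 with only the groups compared, 126 by DESeq2 and 2 by limma-voom. HFD-STZ DHZ over NCD vehicle had 3617 with the Y-linked term, 3981 with only the groups compared (30 other pathway genes) and 3530 by DESeq2. With only its own groups, HFD-STZ DHZ over HFD-STZ vehicle had 1 NRF2 gene and 15 other pathway genes.

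With the replicate number as a block, the 3 comparisons had 2159, 2 and 772 genes called, the first 13 other pathway genes, the last 3 NRF2 genes and 10 other pathway genes, and Gsr stood at −0.11 in HFD-STZ vehicle over NCD vehicle. Deviations of same-numbered libraries correlated at −0.41 to 0.22. Whether such libraries share more than a number cannot be settled from these few values.

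Leaving out 1 library gave 1149 to 4086, 2 to 28 and 112 to 3706 genes, 1 to 4, 0 to 1 and 0 to 8 NRF2 genes, and 8 to 23 (first) and 1 to 23 (last) other pathway genes. Nqo1 in HFD-STZ DHZ over HFD-STZ vehicle then ran from −0.19 to 0.46. In HFD-STZ vehicle over NCD vehicle, Nfe2l2 ran from −0.11 to 0.15, Keap1 from −0.22 to 0.14, Hmox1 from −0.69 to 0.94, Gclm from −0.01 to 0.53, Srxn1 from −0.46 to 0.08 and Gsr from −0.52 to 0.41. In that comparison, scaling by total count gave Nfe2l2 −0.78, Hmox1 −0.34, Gclc −0.16, Gclm −0.82, Txnrd1 −0.56 and Gsr −1.08. DESeq2 size factors gave Keap1 0.00 and DESeq2 0.01, no filter gave Gsr −0.02, limma-voom −0.25, and the Y-linked term gave Hmox1 −0.05 and Gsr −0.20. The cause was not tested. Depth limits Slc7a11, with at most 8 counts.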
